A study of Mus musculus with 7 samples.

Results

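The chemokine ligands and receptors of the mouse uterus were described in whole uteri collected at estrus (3 libraries) or at diestrus (4 libraries). All mice were intact, unexposed CD-1 animals, an outbred laboratory stock, at 2 months of age, and by the labels the groups differed in the stage of the estrous cycle alone. Estrus comes after the peak of estradiol, and diestrus is dominated by progesterone. The members were the rows of the RNA-seq table whose symbol was on a list of chemokine genes, 36 of 31274 rows, of which 28 are ligands and 8 receptors. The values were FPKM, fragments scaled by transcript length and by the size of the library, so levels of different genes can be set side by side. Nothing in the labels ties a library to its own animal, so every p-value measures only the spread between these libraries, which may be technical.

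Chemokines are small secreted proteins that bind to matrix and to G protein-coupled receptors on leukocytes and guide their movement up a gradient. They are named by the spacing of their first cysteines as CC, CXC or CX3C ligands, and their receptors as Ccr, Cxcr or Cx3cr. In the uterus they are known for drawing neutrophils, macrophages, eosinophils and lymphocytes into the tissue as the cycle turns.

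Uterine identity was checked with Hoxa10 and Hoxa11, the homeobox genes of the uterine segment of the reproductive tract, which were at 33.8 to 195.1 and 25.0 to 150.1 FPKM over the 7 libraries. The commonest ratio between estrus replicate 1 and each other library, over genes under 0.3 FPKM in both, gave relative depths of 0.92 to 1.36. The bin of that ratio held only 5.86% to 11.3% of those genes, and absolute depth was unknown. Libraries of different groups had Spearman correlations of 0.820 to 0.919 across genes, and libraries of a group 0.916 to 0.974. On the first principal component the estrus libraries were at 47.0 to 59.9 and the diestrus libraries at -61.9 to -11.3, with diestrus replicate 1 nearest to estrus.

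The question put to these genes was which chemokines and receptors change with the cycle stage. The ligands Ccl28, Cxcl5, Ccl7, Ccl12, Cxcl17, Cxcl1 and Cx3cl1 rose at estrus. The ligands Cxcl14, Cxcl12 and Ccl5 and the receptors Cxcr4, Cxcr3 and Cxcr6 fell, and Cxcr3 and Cxcr6 entered the test through diestrus libraries only. In limma on log2(FPKM + 1), 13 of 23 tested members passed a Benjamini-Hochberg adjusted p of 0.05, 7 higher and 6 lower, while 31.1% of all 13920 tested genes passed (17.2% higher and 14.0% lower). The median log2 fold change, estrus minus diestrus, was 0.14 over the tested members and 0.05 over all tested genes. Testing required 1 FPKM in at least 3 libraries, and 5 of the 23 tested members (Cxcl1, Cxcl5, Cxcl13, Cxcr3 and Cxcr6) reached it in libraries of 1 group only, so the 13 cannot be read as a share of the family. Values of the groups did not overlap in 15 of the 23 (estrus above in 7 and below in 8), and in 40.6% of all tested genes (above in 21.9% and below in 18.7%). Among the 13 members with a mean of at least 5 FPKM over all libraries, 9 passed, where 30.5% of all 10622 such genes did. The number of members that passed was 7 without estrus replicate 1 and 6 without estrus replicate 2, partly because Cxcl1 and Cxcl5 then missed the filter. The plot of log2 fold changes shows all 23 tested members.

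**Figure D1:**
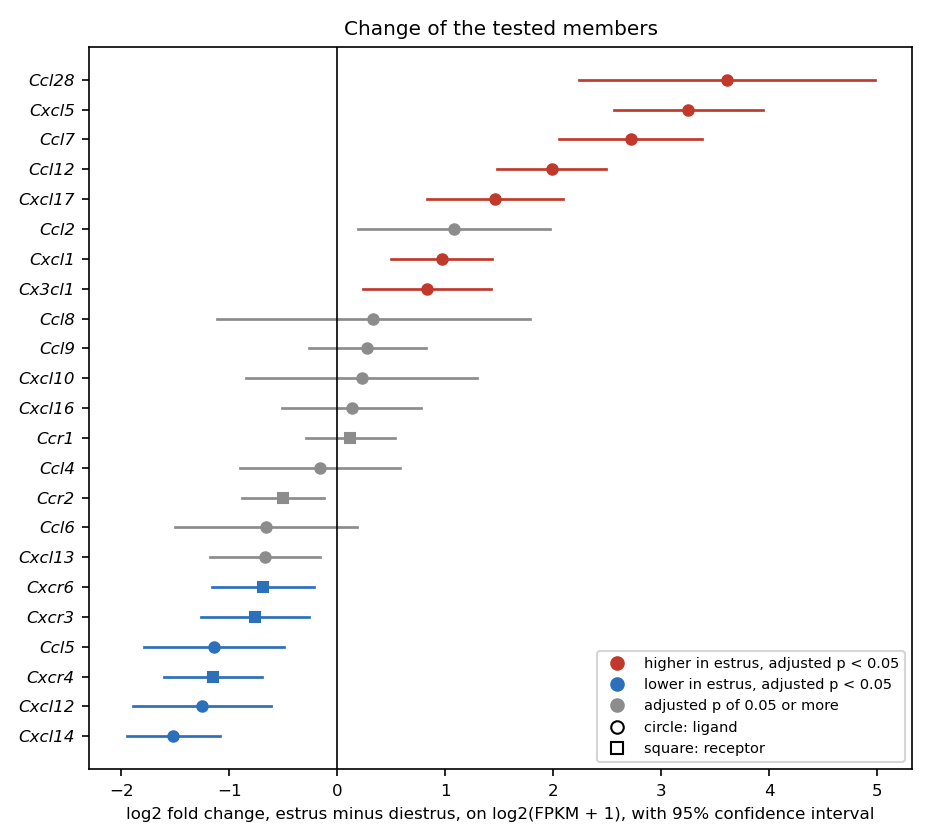
Log2 fold change, estrus minus diestrus, of the 23 tested chemokine members on the log2(FPKM + 1) scale, with 95% confidence intervals from limma; circles are ligands, squares receptors, and colour marks the call at an adjusted p of 0.05. Ccl28 at 3.61 and Cxcl14 at -1.51 end the range, and of the called receptors Cxcr4 is at -1.15, while Cxcr3 and Cxcr6 reached 1 FPKM in diestrus libraries only.

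The other 13 members were too low to be tested. These were the ligands Ccl3, Ccl17, Ccl19, Ccl20, Ccl22, Ccl25, Cxcl2, Cxcl3, Cxcl9 and Cxcl11 and the receptors Ccr6, Ccr7 and Cxcr2, and the highest value of any of them in any library was 2.31 FPKM, for Ccl3. Closest to the filter among the tested members were Cxcl1, Cxcl5, Cxcl13 and Cxcr3, each with 3 libraries at 1 FPKM or more, and closest below it was Ccl3 with 1.56 and 2.31 FPKM in diestrus replicates 4 and 2. The plot of values by library shows all 36 members.

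**Figure D2:**
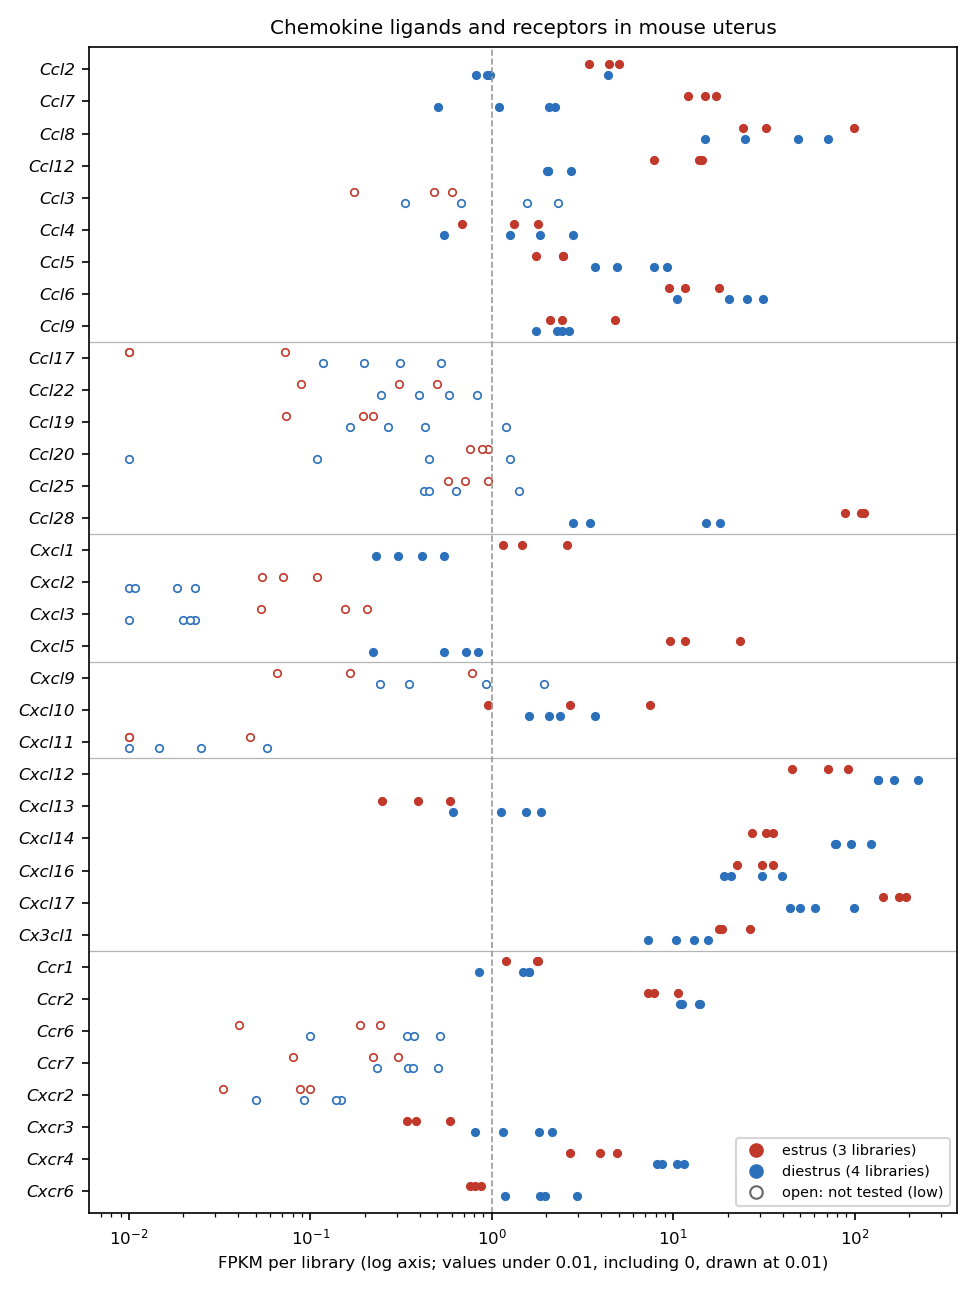
FPKM of each of the 36 members in each library on a log axis, estrus points above diestrus points in each row, with open points for members not tested and a dashed line at 1 FPKM. Ccl28, Cxcl5 and Ccl7 have estrus points well to the right of all diestrus points, and Cxcl12, Cxcl14 and Cxcr4 have them to the left.

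The makeup of the ligand transcripts differed between the stages. The FPKM of the 28 ligands summed to 551.3 ± 99.6 at estrus (SD, n = 3) and 456.7 ± 72.1 at diestrus (SD, n = 4), and these sums overlapped. At estrus the highest ligand in each library was Cxcl17, with 29.2% to 32.3% of that sum, followed by Ccl28 with 16.6% to 20.7%. At diestrus the highest in each library was Cxcl12, with 30.8% to 41.6%, against 9.9% to 14.0% at estrus. Cxcl14 held 5.4% to 6.0% at estrus and 14.7% to 26.0% at diestrus. Ccl28 held only 0.5% to 4.1% at diestrus and ranked sixth to ninth there. None of these 4 ligands overlapped between the stages in its share.

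**Figure D3:**
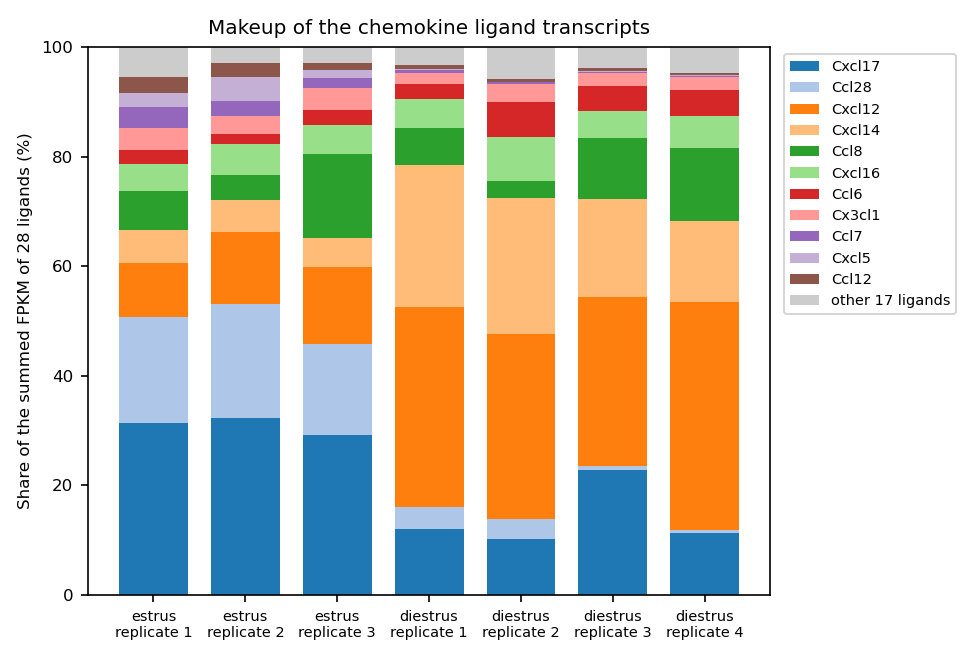
Share of each ligand in the summed FPKM of the 28 chemokine ligands, in percent, 1 bar per library, with 17 low ligands joined in grey. Cxcl17 and Ccl28 together make up the lower part of the estrus bars, and Cxcl12 is the largest segment in all 4 diestrus bars.

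Among the ligands of mucosal epithelia, Ccl28 and Cxcl17 rose. Ccl28, a mucosal chemokine that attracts antibody-secreting cells through Ccr10 and has antimicrobial activity, lies on GRCm38 chromosome 13, 119623819 to 119654359, plus strand, and is protein-coding. It was at 88.1, 112.2 and 108.9 FPKM in estrus replicates 1 to 3, against 15.1, 18.0, 3.48 and 2.79 in diestrus replicates 1 to 4. Every estrus library was above every diestrus library, and among the diestrus libraries replicates 1 and 2 stood above replicates 3 and 4. Its means were 103.1 ± 13.1 FPKM at estrus and 9.85 ± 7.86 at diestrus, a ratio of 10.5, and limma gave a log2 difference of 3.61 (SE 0.59, adjusted p = 0.00529). Cxcl17, an epithelial chemokine of mucosal surfaces (chromosome 7, 25400053 to 25412886, minus strand), was at 143.6, 175.2 and 191.3 FPKM in the estrus libraries and at 44.2, 50.2, 99.1 and 60.7 in the diestrus libraries. The groups did not overlap, and the log2 fold change came to 1.47 (SE 0.27, limma adjusted p = 0.00801).

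Cx3cl1, the membrane-bound fractalkine that tethers cells bearing Cx3cr1 (chromosome 8, 94772009 to 94782427, plus strand), was at 18.6, 17.9 and 26.4 FPKM in the estrus libraries and at 7.26, 15.6, 10.3 and 13.0 in the diestrus libraries. These groups lay close together without overlapping. Its log2 fold change of 0.84 (SE 0.25) had a limma adjusted p of 0.0418, the highest among the called members, and the p was above 0.05 when any library but diestrus replicates 1 or 2 was left out, up to 0.112 without estrus replicate 3. It was also 0.0526 with median-ratio scaling and 0.0712 with quantile normalization. Its receptor Cx3cr1 was at 5.07 ± 1.04 FPKM at estrus and 8.79 ± 2.61 at diestrus (log2 -0.66, limma adjusted p = 0.0807).

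Cxcl16, a transmembrane chemokine that also acts as a scavenger receptor, was at 22.6, 31.0 and 35.5 FPKM in the estrus libraries and at 19.0, 39.9, 20.8 and 31.0 in the diestrus libraries, and the groups overlapped. Its log2 fold change was 0.14, with a 95% confidence interval of -0.51 to 0.78. Ccl20, which attracts cells bearing Ccr6 and is also made by epithelia, was at 0.762 to 0.958 FPKM at estrus and 0 to 1.25 at diestrus. Ccl25, the ligand of Ccr9, was at 0.572 to 0.949 and 0.421 to 1.41 FPKM at estrus and diestrus. Neither was tested.

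Epithelium markers moved with these ligands. Of 12 tested epithelium markers 9 rose and none fell, while 17.2% of all tested genes were higher and 14.0% lower. Those that rose included Krt7, Elf3, Cldn7 and Krt8, with log2 fold changes of 2.52, 3.13, 2.07 and 1.91. For the 12 markers the counts were again 9 and 0 when any single library was left out. Their summed level was 3449 to 3972 FPKM at estrus and 1039 to 1449 at diestrus, and no marker was at 0 in all libraries. In whole tissue, fewer cells of a type and less RNA per cell cannot be told apart. Set against the mean of the 12 markers on log2(FPKM + 1), the difference for Ccl28 ran from -1.28 to -0.83 at estrus and from -4.43 to -1.96 at diestrus, without overlap. The same difference for Cxcl17 ran from -0.58 to -0.02 at estrus and from -0.92 to 0.05 at diestrus, so Cxcl17 relative to epithelium markers overlapped between the stages. For Cx3cl1 it ran from -3.63 to -2.84 at estrus and from -3.37 to -2.16 at diestrus, which overlapped. The part of the epithelium markers in the other results was not tested.

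Of the 4 neutrophil-attracting CXC ligands, which share the receptor Cxcr2, Cxcl5 and Cxcl1 were tested and passed, and both entered the test through estrus libraries only. Cxcl5 (chromosome 5, 90759360 to 90761624, plus strand), known in mice as an epithelial ligand of Cxcr2, was at 11.6, 23.5 and 9.64 FPKM in estrus replicates 1 to 3, against 0.544, 0.221, 0.719 and 0.835 in diestrus replicates 1 to 4. The lowest estrus value was above the highest diestrus value by more than the whole diestrus range. Its log2 fold change was 3.25 (SE 0.30, limma adjusted p = 0.00124), and its ratio of means was 25.7. Cxcl1, the keratinocyte chemoattractant KC (chromosome 5, 90891241 to 90893115, plus strand), was at 1.47, 2.59 and 1.15 FPKM at estrus and at 0.229, 0.411, 0.302 and 0.547 at diestrus, without overlap. The log2 fold change of Cxcl1 was 0.97 (SE 0.20, limma adjusted p = 0.0122). Since no diestrus library reached 1 FPKM in either gene, without any 1 estrus library they were not tested, and they passed without each diestrus library.

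Cxcl2 and Cxcl3, the other ligands of this class, were near 0. Cxcl2 was at 0.0711, 0.109 and 0.0540 FPKM in the estrus libraries and at 0 to 0.0233 in the diestrus libraries, and Cxcl3 was at 0.0537, 0.155 and 0.205 FPKM at estrus and at 0 to 0.0232 at diestrus. In both genes the estrus libraries were the higher ones, at levels too low to test. For Cxcl5 the difference from the mean of the epithelium markers on log2(FPKM + 1) ran from -4.20 to -3.25 at estrus and from -5.92 to -5.15 at diestrus, without overlap. Of the 4 ligands, Cxcl5 held 87.2% to 89.1% of the summed FPKM at estrus and 33.0% to 68.8% at diestrus.

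The promoters of Cxcl1, Cxcl2 and Cxcl3 are shown because these neighbouring genes share a motif while their transcript levels differ. NF-kB is the inflammatory transcription factor known to drive this gene family. Each line gives the 120 bases before the transcription start in RefSeq (GRCm38.p6, plus strand, 5′ to 3′), and capitals mark matches to an NF-kB form, GGG and TTTCC with any 2 bases between, on either strand, and to the TATA form TATAAA. The windows are chr5:90891125-90891244 for Cxcl1, chr5:90903779-90903898 for Cxcl2 and chr5:90785981-90786100 for Cxcl3.
Cxcl1: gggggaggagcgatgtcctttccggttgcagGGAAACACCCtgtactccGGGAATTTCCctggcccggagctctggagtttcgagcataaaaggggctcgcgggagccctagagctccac
Cxcl2: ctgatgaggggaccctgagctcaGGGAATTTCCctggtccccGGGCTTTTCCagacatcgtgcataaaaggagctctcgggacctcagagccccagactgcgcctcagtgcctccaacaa
Cxcl3: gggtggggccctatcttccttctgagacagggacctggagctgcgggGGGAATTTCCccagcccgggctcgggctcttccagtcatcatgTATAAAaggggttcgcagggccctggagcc

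All 3 windows hold GGGAATTTCC, whose first base lies at -71, -97 and -73 in Cxcl1, Cxcl2 and Cxcl3, counted back from -1 at the base before the start. Cxcl1 and Cxcl2 hold a match besides it. Of the 36 members, 27 had a promoter of 300 bases in the RefSeq table, and 5 of these (Ccl9, Ccl20, Cxcl1, Cxcl2 and Cxcl3) held the NF-kB form, as did 1.63% of all 32851 promoters. The estrogen response element, GGTCA and TGACC with any 3 bases between, was in none of the 27 and in 0.0700% of all. The interferon response form, GAAA and GAAA with any 2 bases between, was in Ccl19, Cxcl10 and Cxcl14, or 3 of 27, and in 3.44% of all. TATAAA was in 9 of 27 and in 13.6% of all. Both strands were searched for each form, and a match on one strand can overlap a match on the other. A match is a description of these letters and no site of binding. Transcripts of Cxcl2 and Cxcl3 share 5.84% and 4.24% of their 50-base words with other genes, so reads between them may be split.

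Cxcr2, the receptor of these ligands on neutrophils, was at 0.0330 to 0.0993 FPKM at estrus and at 0.0505 to 0.148 at diestrus, and was not tested. Neutrophil markers were also low: of 12 measured, 3 could be tested and none passed, with Csf3r at a limma adjusted p of 0.0509, S100a9 at 0.111 and Retnlg at 0.718. Before adjustment Csf3r had a limma p of 0.0160 with a log2 fold change of -0.73 and S100a9 a p of 0.0498 with 0.46. Csf3r reached 1 FPKM in diestrus libraries only, so its direction is bound up with the filter. Without diestrus replicate 1, 1 marker fell. Elane and Camp were at 0 in all libraries, and the list summed to 24.5 to 31.1 FPKM at estrus and 15.9 to 53.9 at diestrus, of which Retnlg alone was 20.6 to 27.2 and 11.9 to 47.6. The part of neutrophils in these results was not tested. Of 15 tested NF-kB targets and regulators 5 rose and none fell, and these numbers were 3 and 0 without estrus replicate 2 and 3 and 1 without estrus replicate 3. Among all tested genes 31.1% passed in either direction, 17.2% higher and 14.0% lower. Traf1, Nfkbiz, Bcl3 and Tnf had log2 fold changes of 1.48, 1.99, 1.41 and 0.79, and Tnf reached 1 FPKM in estrus libraries only. Of 6 tested genes of the interleukin 17 axis 3 rose, the receptor subunit Il17ra by 1.53, the neutrophil growth factor Csf3 by 2.14 and Lcn2 by 4.75. The ligands Il17a and Il17f were at 0 in all libraries. A further ligand, Il17c, was at 0.148 to 0.484 FPKM at estrus and 0 to 0.0425 at diestrus, without overlap, and was not tested.

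The ligands of Ccr2, which call monocytes out of the blood, rose in part. Ccl7 (chromosome 11, 82045712 to 82047525, plus strand) was at 17.2, 15.0 and 12.0 FPKM in estrus replicates 1 to 3 and at 2.08, 2.22, 1.10 and 0.508 in diestrus replicates 1 to 4. The estrus libraries were all higher, and the log2 fold change was 2.72 (SE 0.28, limma adjusted p = 0.00147). Ccl12 (chromosome 11, 82101845 to 82103400, plus strand), a mouse ligand of Ccr2, was at 13.9, 14.3 and 7.84 FPKM at estrus and at 2.73, 2.05, 2.04 and 2.01 at diestrus. Its log2 fold change was 1.99 (SE 0.22, limma adjusted p = 0.00164), with no overlap. Ccl2, the prototype monocyte chemoattractant, was at 3.43 to 5.01 FPKM at estrus, against 0.817 to 4.37 at diestrus. The diestrus libraries were at 0.817 to 0.979 except replicate 2, which lay within the estrus range, and the log2 fold change of 1.08 had a limma adjusted p of 0.0648, which was 0.00428 without diestrus replicate 2. Ccl8, in mice a ligand of Ccr8, was at 32.3, 24.3 and 99.6 FPKM at estrus and at 24.8, 15.0, 48.8 and 71.1 at diestrus. Its libraries varied as widely within each stage as between them, and the log2 fold change was 0.33, with a 95% confidence interval of -1.12 to 1.78.

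These genes are neighbours. Within 81.2 kb of chromosome 11 the protein-coding genes lie in the order Ccl2, Ccl7, Ccl11, Ccl12 and Ccl8, and Ccl11, an eosinophil attractant, was at 131.0 ± 39.3 FPKM at estrus and 15.0 ± 3.71 at diestrus. Ccl7, Ccl11 and Ccl12 in the middle passed the test, and Ccl2 and Ccl8 at the ends did not. The promoters of Ccl12 and Ccl8 are shown because of these neighbours Ccl12 passed the test and Ccl8 did not. They are the 120 bases before the RefSeq start on the plus strand of GRCm38.p6, chr11:82101725-82101844 for Ccl12 and chr11:82115065-82115184 for Ccl8, with TATAAA in capitals.
Ccl12: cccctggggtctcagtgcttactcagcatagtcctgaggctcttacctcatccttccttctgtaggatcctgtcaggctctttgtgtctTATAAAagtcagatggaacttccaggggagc
Ccl8: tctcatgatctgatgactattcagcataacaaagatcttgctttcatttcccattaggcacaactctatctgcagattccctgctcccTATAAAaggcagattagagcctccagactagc

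The TATA form began at -31 in Ccl12 and at -32 in Ccl8. In the Cxcl gene group on chromosome 5, 146.6 kb hold Cxcl5, Ppbp, Pf4, Cxcl3, Cxcl15, Cxcl1 and Cxcl2 in that order. Cxcl5 and Cxcl1 rose there, while the platelet chemokine Pf4 between them was at 6.35 ± 0.96 FPKM at estrus and 4.57 ± 0.72 at diestrus (log2 0.40, limma adjusted p = 0.0902). In the second CC group on chromosome 11, Ccl5 fell and Ccl9, Ccl6 and Ccl4 did not pass.

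**Figure D4:**
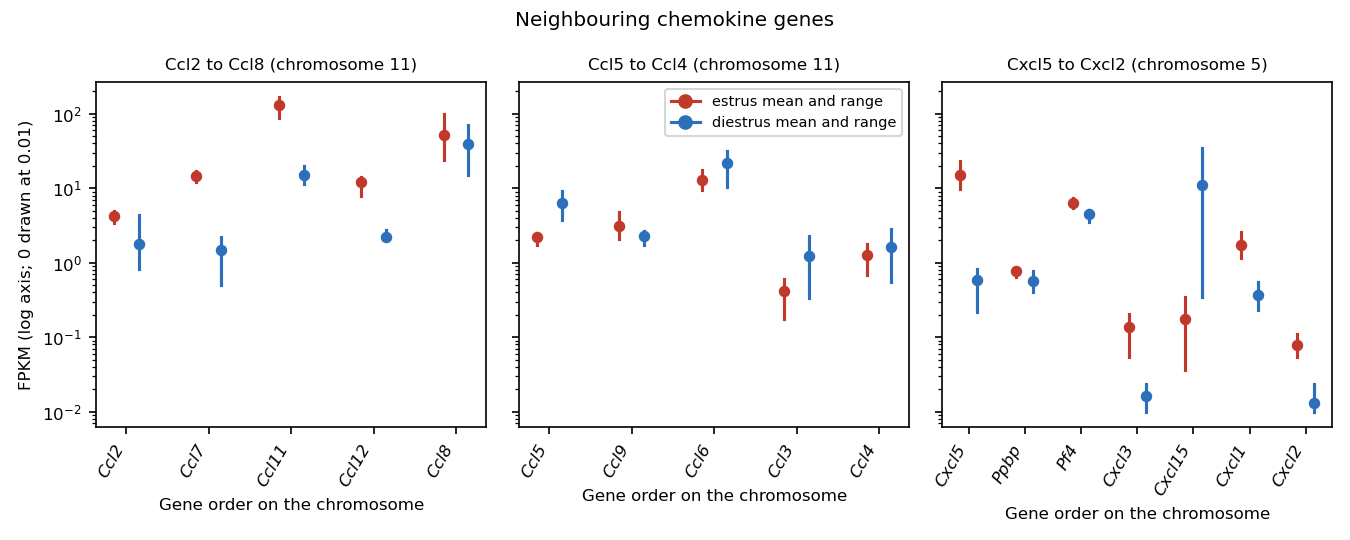
Mean FPKM with the range over libraries, on a log axis, for neighbouring chemokine genes in their order on the chromosome, estrus left of diestrus for each gene. In the first group Ccl7, Ccl11 and Ccl12 are higher at estrus with ranges apart, and in the third Cxcl5 and Cxcl1 are.

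The receptor Ccr2, carried by inflammatory monocytes, was at 7.30, 7.86 and 10.6 FPKM at estrus and at 10.8, 11.2, 13.9 and 14.0 at diestrus. The groups did not overlap, yet the log2 fold change of -0.50 (SE 0.16) missed the threshold with a limma adjusted p of 0.0524. It was 0.0450 with median-ratio scaling, 0.0430 with quantile normalization, 0.0326 without estrus replicate 3 and 0.0412 without diestrus replicate 1. The summed FPKM of Ccl2, Ccl7 and Ccl12 was 31.1 ± 6.83 at estrus and 5.46 ± 2.34 at diestrus. Of 12 tested macrophage and monocyte markers 5 fell and 1 rose, while 14.0% of all tested genes were lower and 17.2% higher. Those that fell included Ms4a7, Csf1r and Lyz2 (log2 -1.22, -1.21 and -1.45), and the endotoxin co-receptor Cd14 rose by 2.04. Without estrus replicate 2 none fell, without estrus replicates 1 or 3 or diestrus replicate 4 the number was 2, and without diestrus replicates 2 or 3 it was 3. Summed levels of the list were 435.3 to 543.3 FPKM at estrus and 402.7 to 894.5 at diestrus. On log2(FPKM + 1), the difference of Ccr2 from the mean of that list ran from -1.28 to -1.07 at estrus and from -1.62 to -0.77 at diestrus, which overlapped. For Ccl7 it ran from -0.99 to -0.15 at estrus and from -4.54 to -2.71 at diestrus, and for Ccl12 from -1.55 to -0.28 at estrus and from -3.63 to -2.44 at diestrus, both without overlap.

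The remaining CC ligands of macrophages and lymphocytes varied in level. Ccl5, made by T and natural killer cells and bound by Ccr1 (chromosome 11, 83525778 to 83530518, minus strand), was at 2.46, 1.76 and 2.48 FPKM in the estrus libraries and at 3.72, 7.84, 4.90 and 9.28 in the diestrus libraries. All estrus values were lower, and limma gave a log2 difference of -1.14 (SE 0.28) with an adjusted p of 0.0211, which was 0.0521 without estrus replicate 1 and 0.0910 without estrus replicate 2. Ccl6, a myeloid ligand of Ccr1 found in rodents, was at 11.6, 9.50 and 17.8 FPKM at estrus and at 10.4, 31.3, 20.2 and 25.5 at diestrus. Diestrus replicate 1 lay within the estrus range, and the adjusted p of 0.197 became 0.0269 without it, with a log2 fold change of -0.66 over all libraries and -0.96 without it. Ccl9 was at 2.11 to 4.79 and 1.76 to 2.65 FPKM at estrus and diestrus, Ccl4 at 0.683 to 1.80 and 0.545 to 2.80, and Ccl3 at 0.175 to 0.605 and 0.334 to 2.31. All 3 overlapped, with a log2 fold change of 0.28 for Ccl9 and -0.16 for Ccl4. Their receptor Ccr1 was at 1.19 to 1.80 FPKM at estrus and 0.855 to 1.60 at diestrus (log2 0.12, 95% confidence interval -0.29 to 0.54).

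The interferon-induced ligands Cxcl9, Cxcl10 and Cxcl11, which share the receptor Cxcr3 of activated T and natural killer cells, did not pass or were not tested. Cxcl10 was at 7.40, 0.954 and 2.70 FPKM in estrus replicates 1 to 3 and at 1.60 to 3.72 at diestrus. The estrus libraries lay on both sides of the diestrus libraries, and the log2 fold change of 0.23 was -0.32 without estrus replicate 1. Cxcl9 was at 0.0659 to 0.777 FPKM at estrus and 0.243 to 1.94 at diestrus. Cxcl11, which the annotation lists as a polymorphic pseudogene, was at 0 to 0.0466 FPKM at estrus and 0 to 0.0574 at diestrus. Ifng, which encodes the interferon gamma that induces these ligands, was at 0.0708 to 0.239 FPKM at estrus and 0.0564 to 0.286 at diestrus and was not tested.

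Cxcr3 (chromosome X, 101731535 to 101734269, minus strand) was at 0.340, 0.382 and 0.587 FPKM at estrus and at 0.804, 1.16, 2.16 and 1.82 at diestrus. All estrus values were lower, and limma gave a log2 difference of -0.76 (SE 0.22, adjusted p = 0.0340). Cxcr6 (chromosome 9, 123806475 to 123811760, plus strand), the receptor of Cxcl16 on resident lymphocytes, was at 0.808, 0.874 and 0.755 FPKM at estrus and at 2.94, 1.96, 1.18 and 1.86 at diestrus, also without overlap. The log2 fold change of Cxcr6 was -0.69 (SE 0.20, limma adjusted p = 0.0381). Without any 1 of the estrus libraries the limma adjusted p was 0.0561 to 0.121 for Cxcr3 and 0.0865 to 0.114 for Cxcr6. Without diestrus replicates 2, 3 or 4 in turn Cxcr3 missed the filter and was not tested. Without diestrus replicate 1 its limma adjusted p was 0.0107. Quantile normalization gave 0.0806 for Cxcr3 and 0.0975 for Cxcr6, and Cxcr6 was also above 0.05 without diestrus replicates 2 or 4 (0.0713 and 0.0786), with a pseudocount of 5 (0.0520) and with no filter (0.0540).

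The T cell markers Cd3g, Lck and Cd4 were tested and fell (log2 -1.03, -0.77 and -0.75), but Cd3g and Cd4 reached 1 FPKM in diestrus libraries only, so their direction is bound up with the filter, and 1 marker fell when any single estrus library or diestrus replicate 4 was left out. The 9 T cell markers summed to 5.25 to 5.77 FPKM at estrus and 9.25 to 15.5 at diestrus, and none was at 0 in all libraries. Of 7 tested natural killer cell markers 1 fell, against 14.0% of all tested genes. It was Klrb1c (log2 -1.17), which reached 1 FPKM in diestrus libraries only, and none fell when any single estrus library was left out. Without diestrus replicates 1 and 2 in turn 4 and 2 fell, and none without diestrus replicates 3 or 4. Relative to the mean of the T cell markers on log2(FPKM + 1), Cxcr3 stood at -0.09 to 0.15 at estrus and at 0.08 to 0.71 at diestrus, and Cxcr6 at 0.29 to 0.42 and at 0.17 to 1.20, so both overlapped. Ccl5 stood above those markers by 0.97 to 1.28 at estrus and by 1.46 to 2.25 at diestrus, without overlap. Against the natural killer cell markers it stood at 0.44 to 0.88 at estrus and at -0.29 to 1.64 at diestrus. The part of lymphocyte content in these results was not tested.

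Cxcl12 and its receptor Cxcr4, the pair that retains leukocytes and progenitors in tissues and guides vessel growth, were both lower at estrus. Cxcl12 (chromosome 6, 117168535 to 117181367, plus strand) was at 45.3, 71.2 and 91.7 FPKM in estrus replicates 1 to 3 and at 133.7, 165.6, 133.9 and 222.0 in diestrus replicates 1 to 4. The groups did not overlap, and the log2 fold change was -1.25 (SE 0.27, limma adjusted p = 0.0146), with an adjusted p of 0.0551 without estrus replicate 2. Cxcr4 (chromosome 1, 128588199 to 128592293, minus strand) was at 4.92, 2.71 and 3.96 FPKM at estrus and at 8.68, 10.5, 8.14 and 11.4 at diestrus, again without overlap. Its log2 fold change was -1.15 (SE 0.20, limma adjusted p = 0.00595). The ratio of Cxcl12 to Cxcr4 in a library was 9.20 to 26.3 at estrus and 15.4 to 19.5 at diestrus, so the ratios overlapped while both levels were lower. Ackr3, the atypical receptor that takes up Cxcl12 without G protein signalling, rose: it was at 61.8, 59.6 and 42.7 FPKM at estrus, against 34.8, 22.9, 28.8 and 26.4 at diestrus (log2 0.93, limma adjusted p = 0.0104). Without estrus replicate 2 its adjusted p was 0.0564. Dpp4, the membrane peptidase that inactivates Cxcl12 and Cxcl10 by clipping their first residues, fell to 17.2 ± 2.22 FPKM at estrus, against 39.0 ± 8.75 at diestrus (log2 -1.12, limma adjusted p = 0.00582).

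Cxcl14, a chemokine made by epithelium and stroma whose receptor is not settled (chromosome 13, 56288643 to 56296551, minus strand), was at 27.2, 32.5 and 35.3 FPKM at estrus and at 95.4, 122.2, 77.7 and 78.4 at diestrus. All estrus libraries were lower, and limma gave a log2 difference of -1.51 (SE 0.19, adjusted p = 0.00233). Cxcl13, the B cell attractant that binds Cxcr5, was at 0.247 to 0.592 FPKM at estrus and 0.611 to 1.86 at diestrus. These groups did not overlap, and the log2 fold change of -0.67 had a limma adjusted p of 0.0516, which was 0.0441 with a pseudocount of 0.1, 0.0481 with median-ratio scaling, 0.0460 with no intensity trend and 0.0115 without diestrus replicate 1.

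Endothelium markers were lower along with Cxcl12. Of 10 tested endothelium markers 9 fell, among them Esam, Cldn5, Tek and Emcn (log2 -1.03, -1.57, -1.21 and -1.37). The number that fell was 0 without estrus replicate 2, 4 without estrus replicate 1 and 5 without diestrus replicate 3. Their sums were 165.2 to 209.4 FPKM at estrus and 277.2 to 670.2 at diestrus. Of 10 tested stroma markers 3 fell (Thy1, Nr2f2 and Vim, log2 -1.44, -0.78 and -0.90) and 7 did not pass. Among all tested genes 31.1% passed in either direction and 14.0% were lower. Vim missed the threshold when any single estrus library or diestrus replicates 3 or 4 were left out (limma adjusted p 0.0673 to 0.117). The stroma sums overlapped, at 3947 to 5218 FPKM at estrus and 3103 to 5762 at diestrus. No marker of either list was at 0 in all libraries. Relative to the mean of the endothelium markers on log2(FPKM + 1), Cxcl12 stood 1.41 to 2.25 above at estrus and 1.64 to 2.40 above at diestrus. Relative to the stroma markers it stood at -1.87 to -1.26 at estrus and at -0.85 to -0.29 at diestrus, without overlap. Cxcl14 stood at -2.62 to -2.54 at estrus and at -1.88 to -0.72 at diestrus against them, also without overlap. Cxcr4 stood at -2.10 to -1.56 at estrus and at -2.25 to -1.40 at diestrus against the endothelium markers, which overlapped, while against the T cell markers it stood at 1.40 to 2.06 at estrus and at 2.24 to 2.53 at diestrus, without overlap. The part of vessel content in these results was not tested.

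**Figure D5:**
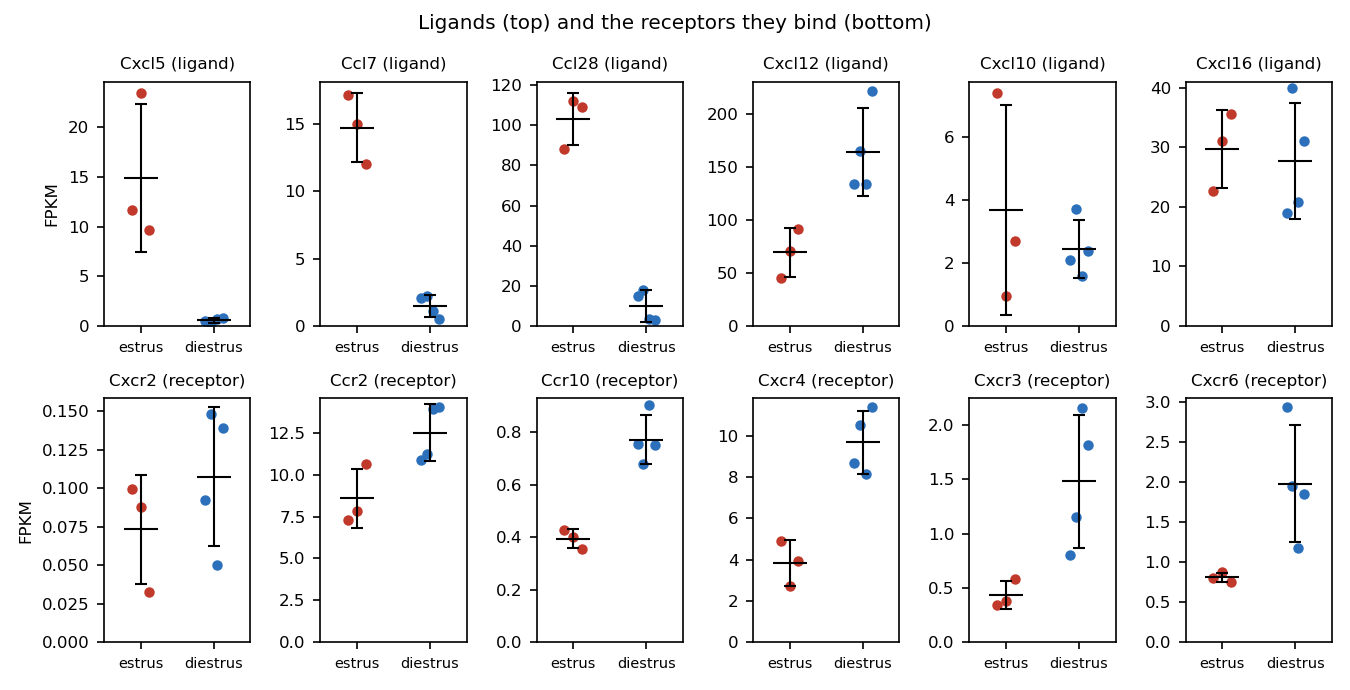
FPKM of 6 ligands (top) and of a receptor each binds (bottom), with a point per library and black bars for the mean and SD, estrus left of diestrus; each panel has its own axis from 0. The ligands Cxcl5, Ccl7 and Ccl28 are higher at estrus above receptors that are not, Cxcl12 and Cxcr4 are both lower, and Cxcl10 and Cxcl16 overlap above lower Cxcr3 and Cxcr6.

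The ligands and receptors of dendritic cell traffic were low throughout. Ccl17 and Ccl22, dendritic cell ligands of Ccr4, were at 0 to 0.0723 and 0.0889 to 0.50 FPKM at estrus and at 0.117 to 0.524 and 0.246 to 0.830 at diestrus. Ccl17 was listed at 0 in estrus replicates 2 and 3 and did not overlap between the stages. Ccl19, which guides dendritic and naive T cells through Ccr7, was at 0.0735 to 0.222 FPKM at estrus and 0.165 to 1.20 at diestrus, and 52.0% of its 50-base words are shared with gene copies such as Ccl19-ps1, so reads may be lost or split. Ccr7 was at 0.0806 to 0.305 FPKM at estrus and 0.233 to 0.508 at diestrus, and Ccr6 at 0.0402 to 0.241 and 0.0998 to 0.518. Of 7 tested dendritic cell markers 6 fell, against 14.0% of all tested genes. Those that fell included Cd83, Fscn1, Zbtb46 and Batf3 (log2 -2.48, -0.82, -0.66 and -0.71). Batf3 and another of the 6 reached 1 FPKM in diestrus libraries only. The number that fell was 2 without estrus replicate 2 and 3 without diestrus replicates 2 or 3. Their sums were 28.8 to 35.4 FPKM at estrus and 57.5 to 73.2 at diestrus. Of 4 tested eosinophil markers none passed by limma, with unadjusted p-values of 0.0163 for Prg2 and 0.0452 for Alox15. Prg2 reached 1 FPKM in diestrus libraries only, so its direction is bound up with the filter. Without estrus replicates 1 or 3 or diestrus replicate 2, 1 marker fell. Of 8 tested smooth muscle markers 1 rose and 1 fell (Actg2 and Smtn, log2 1.13 and -0.93). Of the 8 log2 fold changes 7 were negative, with a median of -0.33. Each of the 2 calls was lost without some single libraries, both of them without estrus replicates 2 or 3 or diestrus replicates 2 or 3. Of 2 tested B cell markers 1 rose, Cd79b by 1.54.

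Across the rest of the chemokine system, 4 further ligands were tested: Ccl11 rose by 3.02 on the log2 scale, Ccl27a fell by 1.19, Xcl1 fell by 1.70, and Pf4 did not pass. The call for Xcl1 (limma adjusted p = 0.0485) was lost when any single estrus library or diestrus replicates 3 or 4 were left out (0.0647 to 0.160), with a pseudocount of 5 (0.0665) and with quantile normalization (0.0609). Among further receptors, Ccr3 did not pass (log2 -0.17, limma adjusted p = 0.634), nor did Cx3cr1. Of 6 tested atypical receptors and modifiers, Ackr3 rose and Dpp4, Darc (the Duffy antigen, now Ackr1) and Ccrl2 fell, the last 2 with log2 fold changes of -1.03 and -1.25. Without estrus replicate 2 Darc had a limma adjusted p of 0.0726. Of 26 tested genes that relay receptor signals 8 rose and 5 fell, with a median of 0.10. Among all tested genes 17.2% were higher and 14.0% lower. The kinase Lyn, the phospholipase Plcb3 and the phosphoinositide kinase subunit Pik3r5 rose by 0.86, 0.64 and 1.51, and the arrestin Arrb2 fell by 1.03. Without estrus replicate 2 the numbers were 3 higher and 1 lower, without diestrus replicate 1 they were 7 and 9, and over the other libraries left out in turn 5 to 6 rose and 2 to 3 fell.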

How the data were processed

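Per the labels' protocols, RNA was purified on columns with DNase and made into libraries by TruSeq RNA chemistry. The authors deposited 1 table of FPKM with 1 column per library, and each of the 7 columns was matched to a sample by its description. The aligner TopHat2 2.0.4 and the build mm10 appear, per the submitters' processing notes, without a stated role. Which program and annotation gave the FPKM stands in none of the sources used here. FPKM are relative to the whole library, so a few abundant transcripts can lower all others, and the 10 highest rows held 33.7% to 38.2% of the FPKM at estrus and 12.1% to 34.2% at diestrus.

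Of 31274 rows, the 13920 that reached 1 FPKM in 3 or more libraries entered a limma fit (version 3.58.1, R 4.3.3) of estrus against diestrus on the log2(FPKM + 1) scale, with an intensity trend. The p-values are two-sided and Benjamini-Hochberg adjusted over all tested genes, with a threshold of 0.05. Fold changes on this scale understate the change of low genes. The fit was tested on simulated data.

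The members and the 18 gene lists were chosen with earlier results of these data known. Members that passed or averaged at least 20 FPKM in a group are given for every library, and up to 4 genes with the smallest p are named per list. Some other members are also given for every library, and the sums, the differences from marker lists and the promoters were chosen after values had been seen. Of 201 list entries 197 were in the table, 6 of them under an older symbol. Coordinates are from GENCODE (GRCm38), and promoters, 250 bases before to 50 after the start, from RefSeq. Alternatives were other pseudocounts, filters, scalings and moderation, the replicate number as a block, and each library left out in turn. Some results of these lists are not reported here.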

Additional observations from a re-analysis of the deposited data

Results flagged for a closer look

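In each of the 23 tested members the highest or lowest of the 4 diestrus libraries was set against the rest, and 3 stood apart by a gap above Dixon's critical value for 4 samples, which chance exceeds in about 1 in 20 groups. Ccl2 in diestrus replicate 2 was at 4.37 FPKM. Ccl12 in diestrus replicate 1 was at 2.73 FPKM. Ccr1 in diestrus replicate 1 was at 0.855 FPKM.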

How the results depend on the processing

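Of the 13 members that passed, 8 passed under every alternative in which they were tested (Ccl7, Ccl12, Ccl28, Cxcl1, Cxcl5, Cxcl14, Cxcl17 and Cxcr4). Cxcl1 and Cxcl5 were not tested when any estrus library was left out, so for them those alternatives could not fail. Ccl5, Cxcl12, Cx3cl1, Cxcr3 and Cxcr6 missed the threshold under some. With replicate number as a block, 2281 genes changed (1299 higher and 982 lower), against 4336 (2393 and 1943) without it. Of the members 3 were then lower, and 47 genes of the lists changed, against 73. Deviations of same-numbered libraries correlated at 0.198, 0.0243 and 0.169, and the best match was the own number for replicate 1 only. With so few libraries, these values cannot tell whether same-numbered libraries share anything besides the number. With a mean of at least 5 FPKM, 1181 genes and 3 members were lower. Leaving out 1 library gave 1433 to 5311 genes (854 to 2866 higher, 579 to 2445 lower), 6 to 16 members (4 to 8 higher, 2 to 9 lower) and 34 to 86 list genes. Quantile normalization turned Ccl4 to 0.012 and Cxcl16 to -0.0092. With 1 library left out, log2 fold changes ran from -0.26 to 0.73 for Ccl8, from -0.39 to 0.047 for Ccl4, from -0.32 to 0.73 for Cxcl10 and from -0.015 to 0.33 for Cxcl16. The cause was not tested. Of all calls 55.2% were higher. Median-ratio scaling made this 50.2%, quantile normalization 46.8%, and a mean of at least 5 FPKM 63.6%. Absolute depth is unknown, so the counting error, relatively largest for values under 1 FPKM, could not be computed.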

Other observations

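Some chemokine genes outside the 36 were too low or too uneven to test. Cxcl15, a lung and gland chemokine in mice, was at 0.0366 to 0.349 FPKM at estrus and at 35.1, 8.15, 0.351 and 0.556 in diestrus replicates 1 to 4, so that replicates 1 and 2 stood far above the rest. Ccl24, an eosinophil attractant, was at 0.0496 to 0.131 FPKM at estrus and 0.486 to 1.88 at diestrus. Ccr10, the receptor of Ccl28, was at 0.356 to 0.428 FPKM at estrus and 0.676 to 0.901 at diestrus. For Ccl24 and Ccr10 the groups did not overlap, and neither difference was tested.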
